A study of Homo sapiens with 12 samples.

Results

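The genes described here encode subunits of oxidative phosphorylation (OXPHOS), the 5 protein complexes of the inner mitochondrial membrane, in HepG2 cells, an established human hepatoma line. They were chosen by symbol alone, from gene name patterns for the mitochondrial MT-ND, MT-CO, MT-CYB and MT-ATP genes and for the nuclear NDUF, SDH, UQCR, COX and ATP5 families, with at least 10 counts in total over all libraries. Of the 35984 genes in the count table, 153 symbols matched and 104 had enough counts, 13 of them encoded in mitochondrial DNA and 91 in the nucleus. The 91 include 11 pseudogenes. The pattern for cytochrome c oxidase does not match COX4I1, and no pattern matches CYC1, a subunit of complex III, so neither is a member.

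The 12 libraries fall into 4 groups of 3 (n = 3). Knock-down cells (DKD) stably expressed shRNAs against both macroH2A1 and macroH2A2, histone variants that carry a large globular domain, and control cells (CTL) stably expressed control shRNAs. Both lines were made with a retroviral shRNA vector (pRetroSUPER). Cells of all 4 groups were first kept overnight in 0.5% serum. Then DKD and CTL cells received the inflammatory cytokine TNFα at 20 ng/mL for 24 hours (DKD with TNFα, CTL with TNFα), or the vehicle, PBS with albumin (DKD untreated, CTL untreated). The labels state neither whether a line is 1 clone or a pool nor whether replicate libraries are separate cultures. A p-value here thus sets a difference against library spread that could be purely technical.

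Complexes I to IV pass electrons from NADH and succinate to oxygen, complexes I, III and IV pump protons out of the matrix, and complex V, the ATP synthase, lets them back in to make ATP. Mitochondrial DNA, present in many copies per cell, is transcribed as long polycistronic RNAs that are cut into messages for 13 core subunits of complexes I, III, IV and V. All of complex II and the larger part of the other complexes are encoded by single-copy nuclear genes, whose promoters are known for binding sites of NRF1, GABPA and YY1. Hepatocytes are rich in mitochondria.

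Library totals ran from 30955080 to 42094144 estimated counts, and a single count stood for 0.0238 to 0.0320 CPM, the count per 1e6 counts of its library. MACROH2A1 was at 32.4 to 63.5 CPM in the 6 DKD libraries and at 204.7 to 278.6 CPM in the 6 CTL libraries (log2 fold change averaged over treatments −2.31, SE 0.14, adjusted p = 2.47e-06, edgeR quasi-likelihood test with Benjamini-Hochberg adjustment). MACROH2A2 fell by 3.53 on the log2 scale (SE 0.11, adjusted p = 2.46e-08, same test). The 13 hepatocyte markers were all detected and summed to 21920 to 28413 CPM in DKD with TNFα, 28798 to 41949 in DKD untreated, 18833 to 20685 in CTL with TNFα and 23126 to 24828 in CTL untreated. The 11 immune cell markers, mostly LYZ, summed to 954 to 1259 CPM in DKD with TNFα, 377 to 545 in DKD untreated, 965 to 1077 in CTL with TNFα and 365 to 419 in CTL untreated, with CD3E and MS4A1 at 0. Their part in the results was not tested. The 6 endothelial markers summed to at most 2.49 CPM in any library. The 5 cholangiocyte markers summed to 348 to 368 CPM in DKD with TNFα and 301 to 349 in DKD untreated. In CTL they summed to 315 to 359 with TNFα and 272 to 281 untreated. The 8 stellate cell and fibroblast markers summed to 33.8 to 47.8 CPM in DKD with TNFα and 27.7 to 34.7 in DKD untreated. In CTL they summed to 23.9 to 29.2 with TNFα and 25.2 to 28.1 untreated. The part of these lists was not tested either. The libraries numbered 1 stood apart from replicates 2 and 3 of their groups, most in DKD. Chi-square over its degrees of freedom, for library 1 against 2 and 3, was 66.7 and 74.6 in DKD with TNFα and 119 and 130.5 in DKD untreated, where 2 against 3 gave 17.5 and 11.97. In CTL it was at most 35.0. In DKD untreated library 1, 12 of the 13 mitochondrially encoded members were above the mean of replicates 2 and 3, with a median log2 difference of 0.49, while 61 of the 83 tested nuclear members were below it (median −0.13). In DKD with TNFα library 1, 10 of 13 were above (median 0.17) and 58 of 83 below (−0.11). In CTL with TNFα library 1, 4 of 13 were above (−0.13) and 58 of 83 below (−0.07), and in CTL untreated library 1, 11 of 13 were above (0.18) and 36 of 83 below (0.02).

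All 13 mitochondrially encoded messages were abundant, and none was called in any contrast of the main fit (all 12 libraries, no replicate block). On leaving out DKD untreated replicate 3, also without the block, 1 was called lower for DKD averaged over treatments. In these bulk libraries, fewer cells of a kind and less RNA per cell cannot be told apart. Per kilobase of gene, MT-CO1, the catalytic subunit of complex IV, had the highest mean level over the 12 libraries, at 14860 CPM per kb, with a range over libraries of 13585 to 17367. It alone held 26.9% of the counts of the 13 genes. MT-ATP6 (11408 CPM per kb), MT-ND4 (11187), MT-CO2 (10989) and MT-CO3 (10834) came next. The ranges over libraries of these 4 overlap each other, and those of MT-ATP6 and MT-ND4 overlap that of MT-CO1. MT-ATP6 is the proton channel subunit of complex V, MT-ND4 a proton-pumping membrane subunit of complex I, and MT-CO2 and MT-CO3 the other core subunits of complex IV. MT-ND4L (6231), MT-ND2 (5553), MT-ND1 (5425), MT-CYB (3841), MT-ATP8 (3455), MT-ND3 (2549) and MT-ND5 (2278) formed the middle of the order, where each range overlaps that of its neighbours but MT-ND4L stays below MT-CO3. MT-CYB is cytochrome b of complex III, MT-ATP8 a small membrane subunit of complex V, and the MT-ND genes encode membrane subunits of complex I. MT-ND6, from position 14149 to 14673 of the mitochondrial chromosome in GRCh38, was lowest at 285 CPM per kb with no overlap with MT-ND5, and is the only mitochondrially encoded member read from the minus strand. Neighbouring genes share bases, 46 between MT-ATP8 and MT-ATP6, 7 between MT-ND4L and MT-ND4, and 1 between MT-ATP6 and MT-CO3, so reads there cannot be told apart.

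**Figure D1:**
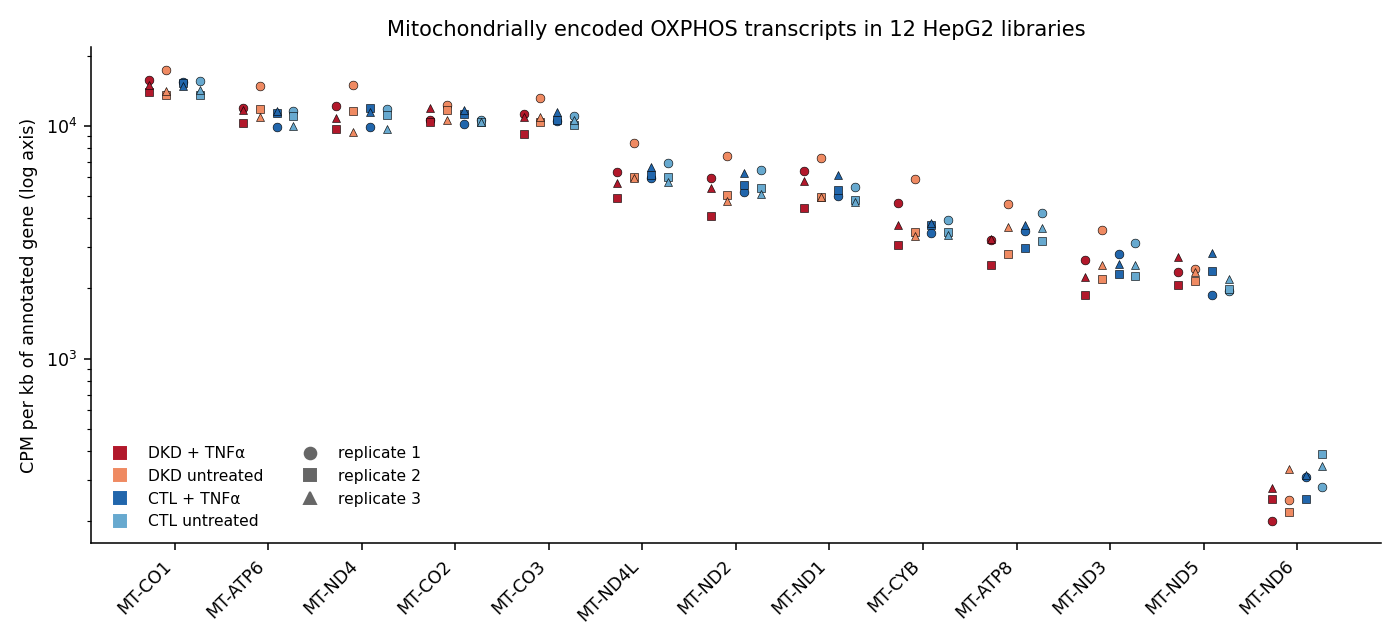
Level of each mitochondrially encoded gene in CPM per kilobase of gene (log axis), with colours for the 4 groups and marker shapes for replicate numbers. MT-CO1 lies at the top of the order and MT-ND6 at the bottom, and the DKD and CTL libraries overlap at every gene.

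The share of all counts taken by the 13 genes did not separate the 4 groups. It was 8.97%, 7.59% and 8.67% in DKD with TNFα, 10.3%, 8.20% and 8.01% in DKD untreated, 8.04%, 8.70% and 8.94% in CTL with TNFα, and 8.66%, 8.06% and 7.92% in CTL untreated. The means were 8.41% ± 0.725, 8.85% ± 1.30, 8.56% ± 0.469 and 8.21% ± 0.392 (SD, n = 3 each). The groups overlap, and the highest value belongs to the DKD untreated library numbered 1. In exact two-sided permutation tests, where 3 against 3 libraries cannot give less than 0.1, p was 0.6 for DKD over CTL without TNFα, 0.7 with TNFα, 0.8 for TNFα over no treatment in DKD and 0.3 in CTL. Without the DKD untreated library numbered 1, the difference of DKD minus CTL without TNFα was −0.109 percentage points, of the other sign, and that of TNFα minus untreated in DKD was 0.308.

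The nuclear members together held far fewer counts. Their share was 0.726%, 0.783% and 0.809% in DKD with TNFα (mean 0.772% ± 0.0423, SD), 0.737%, 0.815% and 0.859% in DKD untreated (0.804% ± 0.062), 0.718%, 0.730% and 0.760% in CTL with TNFα (0.736% ± 0.022), and 0.781%, 0.746% and 0.807% in CTL untreated (0.778% ± 0.031). All 4 groups overlap, with exact permutation p between 0.2 and 0.6 in the 4 unpaired comparisons. In pairs of equal replicate number the share was lower with TNFα in 6 of 6 pairs, by 0.0364 percentage points on average (exact sign-flip test, two-sided, p = 0.03125, the smallest possible, adjusted p = 0.5625 over 18 paired tests of shares and ratio). In DKD over CTL it was higher in 3 of 3 pairs with TNFα and in 2 of 3 without (exact p = 0.25, the smallest possible for 3 pairs, and 0.5). The mitochondrially encoded share was higher in DKD in 3 of 3 pairs without TNFα and in 1 of 3 with it (exact p = 0.25 and 0.75). The ratio of mitochondrially encoded to nuclear counts averaged 10.9 ± 1.34 in DKD with TNFα, 11.1 ± 2.54 in DKD untreated, 11.6 ± 0.380 in CTL with TNFα and 10.6 ± 0.671 in CTL untreated (SD, n = 3 each). In CTL the ratio was 11.2, 11.9 and 11.8 with TNFα and 11.1, 10.8 and 9.81 untreated, without overlap (difference 1.05, exact permutation p = 0.1, the smallest possible, and 0.675 without CTL untreated replicate 3). None of the 12 unpaired share tests could give a smaller p, and no adjustment over them was made. Counts assigned to nuclear copies of mitochondrial genes were 0.192% to 0.283% of the total, and none of the 21 such genes tested was called.

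**Figure D2:**
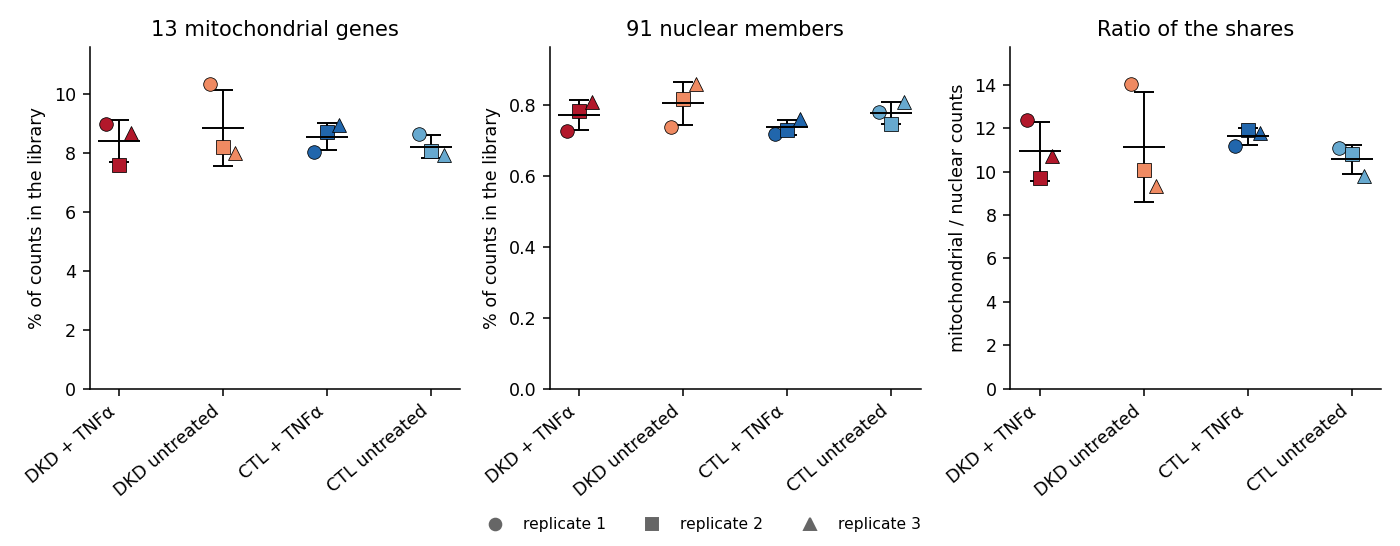
Percent of counts from mitochondrially encoded members, percent from nuclear members, and their ratio, per library, with mean ± SD of each group (n = 3) and DKD groups left of CTL groups. The DKD untreated library numbered 1 gives the highest mitochondrial share, 10.3%, and the highest ratio, 14.04.

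No mitochondrially encoded member passed an adjusted p of 0.05 for TNFα in DKD or in CTL, for DKD over CTL with or without TNFα, for the averaged contrasts, or for the interaction, either in the main edgeR fit or by DESeq2. In these contrasts between 0% and 8.49% of all tested genes were called in one direction. At an unadjusted p under 0.05, 1 gene, MT-ND6, was lower for DKD over CTL averaged over treatments, and no gene in the other 6 contrasts. MT-ND6 was at 105.5, 131 and 146 CPM in DKD with TNFα and 129, 115 and 176 in DKD untreated, against 162, 131 and 166 in CTL with TNFα and 148, 204 and 181 in CTL untreated. The groups overlap, and DKD over CTL gave a log2 difference of −0.30 (SE 0.129, edgeR adjusted p = 0.156). With the replicate number as a block it passed (−0.31, adjusted p = 0.0423), and so did MT-ND3 for TNFα in DKD (−0.28, adjusted p = 0.0442) and MT-ATP8 for TNFα averaged over the lines (−0.19, adjusted p = 0.0447). MT-CYB shows the weight of 1 library, with 6765, 3973 and 3837 CPM in DKD untreated against 4488, 3977 and 3862 in CTL untreated. The median log2 difference of the 13 genes was −0.14 for TNFα in DKD, with 12 of 13 below 0, and 0.03 for TNFα in CTL, with 10 of 13 above 0. Without DKD untreated library 1 the median in DKD was −0.02, with 6 of 13 above 0. In CTL it was −0.06, with 5 of 13 above 0, without CTL untreated library 3. The difference of these effects was not called for any of the 13 (edgeR interaction, no gene at an unadjusted p under 0.05).

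Of the 91 nuclear members, 83 had enough counts to be tested, 38 of complex I, 4 of complex II, 10 of complex III, 10 of complex IV and 21 of complex V. The 8 not tested were 7 pseudogenes (ATP5F1AP10, ATP5F1AP3, ATP5F1AP7, ATP5F1CP1, ATP5MC2P4, ATP5PBP1 and ATP5PDP2) and ATP5MGL, all under 1 CPM. NDUFA4 is counted in complex I by its name, although it is now regarded as a subunit of complex IV. The pseudogene ATP5MFP5 (mean 0.432 CPM), the testis isoform COX6B2 (0.359) and UQCRHL (0.559), a copy of UQCRH, were tested but low. The muscle isoforms COX6A2 and COX7A1 and the lung isoform COX4I2 had no counts. Reads of retained pseudogenes and their parent genes may be split between them, so their values are uncertain.

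Between the lines, a small set of nuclear subunit genes differed, in both directions. Averaged over treatments, 7 of 83 rose (8.43%) and 5 fell (6.02%) in DKD over CTL, against a background of 8.49% of the 16118 tested genes called higher and 6.04% called lower, so both shares are near the background. Complex I had 4 genes up and 2 down, complex IV 1 up, complex V 2 up and 3 down, and complexes II and III had no call. The median log2 difference of the 83 was 0.03, against 0.01 for all genes. With the replicate block 11 were higher and 6 lower, where the background was 15.8% and 15.4%.

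**Figure D3:**
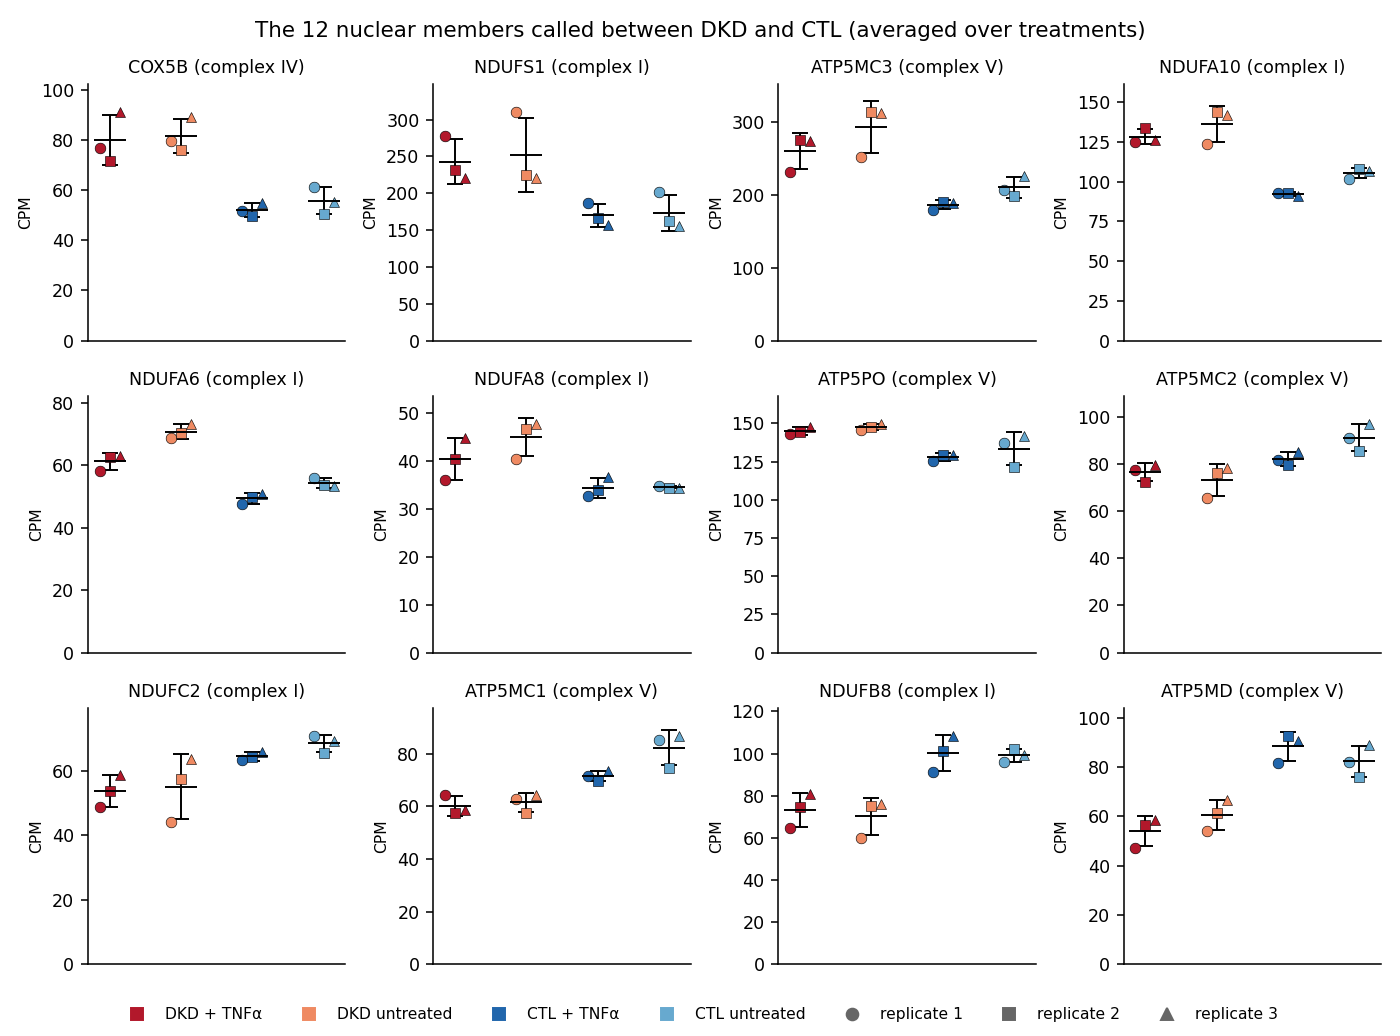
CPM of the 12 nuclear members called for DKD over CTL averaged over treatments, per library, with mean ± SD of each group (n = 3) and DKD groups left of CTL groups. In 9 of the 12 panels all 6 DKD libraries lie on one side of all 6 CTL libraries, and NDUFA8, NDUFC2 and ATP5MC2 overlap. The panels were picked by a test on these same libraries, and the share of such genes over all tested genes was not counted.

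In complex I, NDUFS1, the large iron-sulfur subunit of the electron input module, was at 277, 232 and 220.3 CPM in DKD with TNFα and 310.5, 225 and 221 in DKD untreated, against 187, 166 and 158 in CTL with TNFα and 202, 162 and 156 in CTL untreated. All 6 DKD libraries were above all 6 CTL libraries (log2 fold change 0.53, SE 0.108, adjusted p = 0.0073, edgeR). NDUFA10, an accessory subunit, was at 125, 134 and 126 CPM in DKD with TNFα and 123.5, 144 and 142 in DKD untreated, against 92.8, 92.7 and 90.8 in CTL with TNFα and 102, 108 and 106.5 in CTL untreated. It rose by 0.42 on the log2 scale without overlap (SE 0.052, adjusted p = 0.000289). NDUFA6, an accessory subunit of the LYR family, was at 58.2, 62.5 and 63.0 CPM in DKD with TNFα and 68.7, 70.4 and 73.2 in DKD untreated, against 47.5, 49.9 and 50.9 in CTL with TNFα and 56.0, 53.5 and 53.4 in CTL untreated. It rose by 0.35 (SE 0.049, adjusted p = 0.000786), again without overlap.

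NDUFB8, a membrane-arm accessory subunit widely used as a protein marker of assembled complex I, went the other way. It was at 64.5, 74.5 and 80.6 CPM in DKD with TNFα and 60.1, 74.9 and 75.9 in DKD untreated, against 91.3, 101 and 108 in CTL with TNFα and 95.9, 102 and 99.2 in CTL untreated. No DKD library reached the lowest CTL library (−0.47, SE 0.080, adjusted p = 0.00234, edgeR). NDUFA8, an accessory subunit with cysteine motifs, was called higher (0.31, SE 0.071, adjusted p = 0.0143) and NDUFC2, a small membrane-arm subunit, lower (−0.29, SE 0.087, adjusted p = 0.0492), both with overlap between the lines. The other 32 tested genes of complex I were not called.

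Complex II carried no call, with log2 differences of 0.02 for SDHA, 0.07 for SDHB, 0.04 for SDHC and 0.08 for SDHD. SDHA is the flavoprotein that oxidises succinate, SDHB the iron-sulfur subunit, and SDHC and SDHD the membrane anchors. Complex III carried none either. Its smallest p was that of UQCRC1, a core subunit, at 0.14 (SE 0.047, adjusted p = 0.080, edgeR), and UQCRC2 and UQCRH, a core and a hinge subunit, were at −0.02 and 0.09. In complex IV, COX5B, a nuclear subunit on the matrix side, had the largest fold change of the 83. It was at 76.7, 71.8 and 91.1 CPM in DKD with TNFα and 79.5, 76.1 and 89.2 in DKD untreated, against 51.7, 49.6 and 55.0 in CTL with TNFα and 61.3, 50.4 and 55.3 in CTL untreated. The lines did not overlap (0.58, SE 0.079, adjusted p = 0.000526). COX5A, another nuclear subunit of complex IV, was not called (0.02, SE 0.091), and neither were COX7C (−0.11) and COX6A1 (0.03).

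In complex V the catalytic subunits ATP5F1A and ATP5F1B were not called (0.07, SE 0.040, and 0.12, SE 0.037, adjusted p = 0.314 and 0.064 by edgeR). ATP5MD, a small membrane subunit also called DAPIT, was at 47.3, 56.7 and 58.4 CPM in DKD with TNFα and 54.2, 61.2 and 66.5 in DKD untreated, against 81.8, 92.7 and 90.6 in CTL with TNFα and 82.1, 76.0 and 88.8 in CTL untreated. It fell by 0.57 on the log2 scale without overlap (SE 0.078, adjusted p = 0.000545). ATP5PO, the stalk subunit that confers oligomycin sensitivity, was called higher by 0.16 (SE 0.049, adjusted p = 0.046). The calls of ATP5PO and NDUFC2 were lost in 14 and that of ATP5MC2 in 15 of 20 alternatives. That of ATP5PO was lost on leaving out any 1 library but DKD untreated replicate 1, that of ATP5MC2 any but DKD untreated replicate 3, and that of NDUFC2 any but DKD untreated replicates 1 and 3.

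The 3 genes for the c subunit, which forms the rotor ring of complex V, differed in direction. ATP5MC3 rose and ATP5MC1 and ATP5MC2 fell, although they encode one protein ending. The final 225 coding bases of their GENCODE v29 transcripts (75 codons) are shown because the mature subunit is the same in all 3, and only the bases tell the counts apart. Capitals mark the positions where the 3 do not all share a base.
ATP5MC3: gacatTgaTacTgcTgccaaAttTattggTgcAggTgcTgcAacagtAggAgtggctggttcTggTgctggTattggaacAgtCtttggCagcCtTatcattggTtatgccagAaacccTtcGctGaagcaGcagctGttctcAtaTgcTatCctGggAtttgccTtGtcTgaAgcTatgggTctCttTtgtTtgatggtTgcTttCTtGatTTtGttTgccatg
ATP5MC1: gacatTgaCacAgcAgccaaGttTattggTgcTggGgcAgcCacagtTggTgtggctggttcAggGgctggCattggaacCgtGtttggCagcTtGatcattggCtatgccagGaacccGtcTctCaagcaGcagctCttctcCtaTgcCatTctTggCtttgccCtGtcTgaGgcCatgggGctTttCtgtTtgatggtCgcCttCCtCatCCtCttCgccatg
ATP5MC2: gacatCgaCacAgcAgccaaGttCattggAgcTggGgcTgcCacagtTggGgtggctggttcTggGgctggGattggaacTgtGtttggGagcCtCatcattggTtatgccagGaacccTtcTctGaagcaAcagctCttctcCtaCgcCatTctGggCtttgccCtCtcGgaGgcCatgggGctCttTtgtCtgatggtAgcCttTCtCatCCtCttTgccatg
There are 52 such positions, 47 of them at the final base of a codon, and no residue differs. The coding ends of ATP5MC1 and ATP5MC2 are 88.9% identical, those of ATP5MC1 and ATP5MC3 81.3%, and those of ATP5MC2 and ATP5MC3 81.3%. No run of 31 bases is shared between the transcripts of any pair, although shorter reads may match more than 1 of them.

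ATP5MC3 was at 232, 276 and 275 CPM in DKD with TNFα and 252, 314.5 and 313.5 in DKD untreated, against 180.2, 191 and 189.5 in CTL with TNFα and 207, 199 and 227 in CTL untreated. All DKD libraries were above all CTL libraries (0.48, SE 0.073, adjusted p = 0.00116, edgeR). ATP5MC1 was at 64.4, 57.4 and 58.4 CPM in DKD with TNFα and 62.7, 57.5 and 64.3 in DKD untreated, against 71.4, 69.5 and 73.5 in CTL with TNFα and 85.1, 74.6 and 86.8 in CTL untreated. It fell by 0.33 without overlap (SE 0.060, adjusted p = 0.00348). ATP5MC2 was at 77.8, 72.5 and 79.9 CPM in DKD with TNFα and 65.7, 76.2 and 78.5 in DKD untreated, against 81.8, 79.6 and 85.4 in CTL with TNFα and 91.1, 85.8 and 97.2 in CTL untreated. The lines overlap by 1 library, and the fall was 0.21 (SE 0.061, adjusted p = 0.0445).

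Of the 12 called members, 6 lie in 2 stretches of the genome where most genes were shifted. ATP5MC3, COX5B, NDUFS1 and NDUFA10 all lie on the long arm of chromosome 2, and ATP5MD and NDUFB8 at the far end of chromosome 10. In GRCh38 the genes span chr2:175176258-175184607 (ATP5MC3, minus strand), chr2:97646040-97648383 (COX5B, plus), chr2:206114817-206159603 (NDUFS1, minus), chr2:239892450-240025402 (NDUFA10, minus), chr10:103389041-103396492 (ATP5MD, minus) and chr10:100523740-100530000 (NDUFB8, minus). On chromosome 2 from 95 Mb onward, 593 genes had a median log2 fold change of 0.38 in DKD over CTL, with 88.2% above 0 and 48.4% called higher. The other 406 genes of chromosome 2 had a median of 0.00. On chromosome 10 from 100 Mb onward, 169 genes had a median of −0.47, with 85.2% below 0 and 58% called lower, against 0.02 in the other 400 genes of that chromosome. The other autosomes and the X chromosome, 21 in all, had medians between −0.03 and 0.02. Over all tested genes, 287 were called higher and 8 lower in the chromosome 2 stretch, and 4 and 98 in the chromosome 10 stretch. Outside both stretches 1077 were called higher and 868 lower. The limits of the stretches were set after these values were seen, and no test was made of them.

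In windows of 5 Mb with at least 10 genes, medians were 0.20 to 0.54 in the 26 windows of the chromosome 2 stretch and −0.26 to 0.09 in the 15 before it. They were −0.52 to −0.43 in the 5 windows of the chromosome 10 stretch and −0.21 to 0.31 in the 20 before it. Each library showed the shift. Relative to the mean of all libraries, the chromosome 2 stretch had a median of 0.17 to 0.22 in the 6 DKD libraries and −0.24 to −0.15 in the 6 CTL libraries, and the chromosome 10 stretch −0.25 to −0.21 in DKD and 0.22 to 0.29 in CTL. TNFα averaged over the lines gave a median of 0.01 in both stretches.

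Set against the median of its own stretch, COX5B was higher by 0.20 on the log2 scale, NDUFS1 by 0.15, ATP5MC3 by 0.10 and NDUFA10 by 0.04, while ATP5MD was lower by 0.10 and NDUFB8 did not stand off it (−0.00). NDUFB3, an accessory subunit of complex I in the chromosome 2 stretch, had 0.37 without being called (adjusted p = 0.0946, edgeR), at 36.8, 53.0 and 53.8 CPM in DKD with TNFα and 34.7, 49.9 and 56.9 in DKD untreated, against 32.2, 39.5 and 38.3 in CTL with TNFα and 35.4, 34.5 and 40.3 in CTL untreated. The replicate 1 libraries of DKD were near the CTL level in this gene. The pseudogene ATP5F1AP2, also there, had 0.14. Outside both stretches, 3 of 75 tested members were higher (4%) and 3 lower (4%), against 7.01% and 5.65% of the 15356 genes tested there. Those 6 are NDUFA6 (chr22:42085525-42090955, minus), NDUFA8 (chr9:122144058-122159819, minus), ATP5PO (chr21:33903453-33915980, minus), ATP5MC1 (chr17:48892765-48895871, plus), NDUFC2 (chr11:78068304-78080219, minus) and ATP5MC2 (chr12:53632726-53677408, minus). All 6 DKD libraries carry the shift, the labels do not say how many lines or clones stand for each arm, and DNA copies were not measured, so knock-down and a property of the lines cannot be told apart in these genes.

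**Figure D4:**
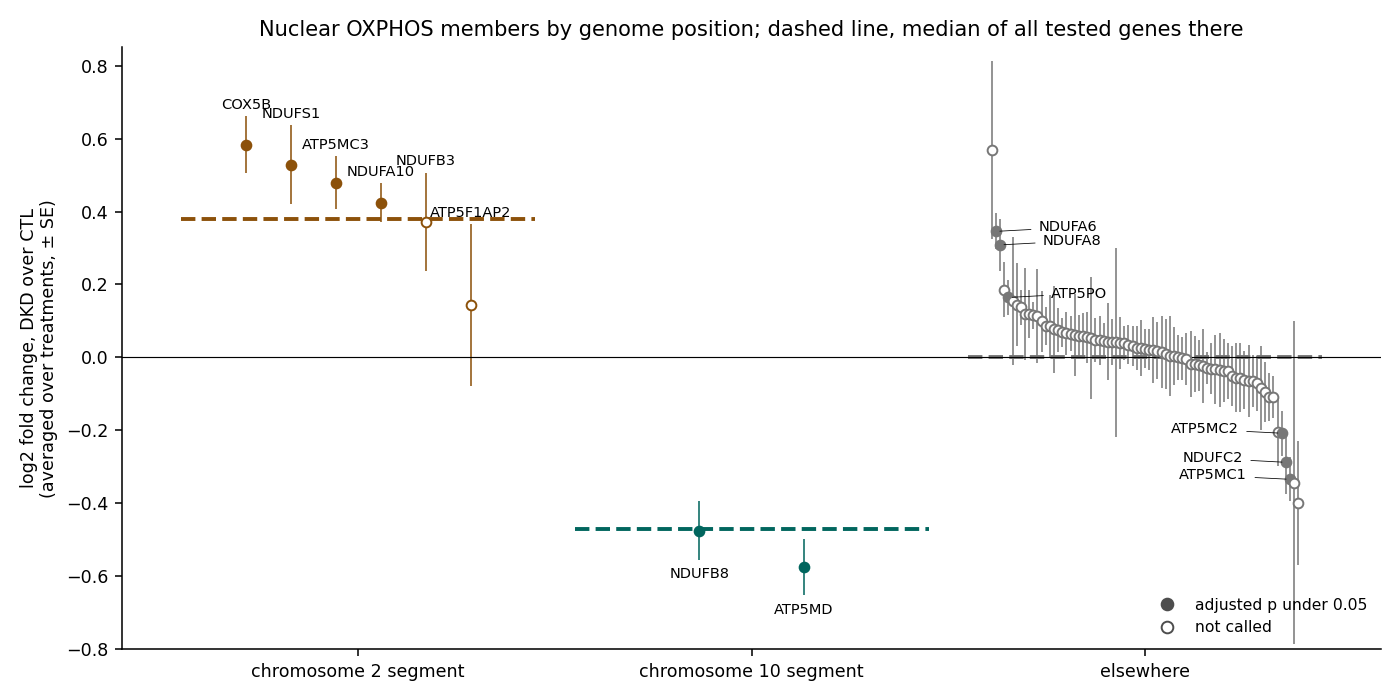
Log2 fold change ± SE of the tested nuclear members for DKD over CTL averaged over treatments, in the chromosome 2 stretch, in the chromosome 10 stretch and elsewhere, with filled points for called genes and a dashed line at the median of all tested genes of that region. Members lie around 0.38 in the first, around −0.47 in the second and around 0 elsewhere.

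DKD over CTL gave calls in largely the genes named above with and without TNFα. Without TNFα, 4 of 83 members were higher (ATP5MC3, COX5B, NDUFA10 and NDUFA6) and 3 lower (ATP5MC1, ATP5MD and NDUFB8), where 3.13% of all genes were higher and 1.86% lower. With TNFα, the same 4 were higher and 2 were lower (ATP5MD and NDUFB8), where 3.94% and 2.3% of all genes were called. With the replicate block the counts were 7 and 5 without TNFα (background 9.17% and 7.31%) and 7 and 3 with it (10.6% and 8.79%), and NDUFS1 joined the calls in both. Without TNFα the count fell to 0 on leaving out CTL untreated replicate 3, to 1 without CTL untreated replicate 2, to 2 without CTL untreated replicate 1 or DKD untreated replicate 2, and to 3 without DKD untreated replicate 3. Over all genes these fits called 423 to 584, against 803 with all 12 libraries. With TNFα the count of members was 3 without DKD with TNFα replicate 2 or any 1 replicate of CTL with TNFα. Over all genes those fits called 572 to 673, against 1005 with all 12 libraries. In the interaction, edgeR called 0 of the 16118 genes in either direction (0% and 0%), and no member had an unadjusted p under 0.05. DESeq2 called no member there either.

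TNFα gave small differences below 0 across the nuclear subunit genes, few of which passed the test. Averaged over the lines, 64 of 83 members had a value below 0, with a median of −0.06 against −0.01 for all tested genes, of which 50.9% were below 0. One member fell and none rose, where 5.02% of all genes were higher and 2.2% lower. NDUFB6, an accessory subunit of complex I's membrane arm (chr9:32552999-32573184, minus), was at 28.7, 26.3 and 28.9 CPM in DKD with TNFα against 34.5, 29.4 and 32.6 in DKD untreated, and at 27.4, 27.2 and 26.3 in CTL with TNFα against 36.9, 30.5 and 35.7 in CTL untreated. It was lower with TNFα in all 6 pairs of equal replicate number (−0.28, SE 0.070, adjusted p = 0.0372, edgeR). ATP5PF, a stalk subunit of complex V (−0.22, adjusted p = 0.0514), SDHB (−0.21, adjusted p = 0.0554) and UQCRQ, a small subunit of complex III (−0.25, adjusted p = 0.0600), were just above the threshold and lower in all 6 pairs. These genes and NDUFB6 were named by their p from the same libraries, so their pairs are a description and no further support. By complex, the median was −0.07 in complex I with 27 of 38 below 0, −0.04 in complex II with 2 of 4, −0.03 in complex III with 9 of 10, −0.04 in complex IV with 8 of 10, and −0.09 in complex V with 18 of 21.

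The count for TNFα depended on how the replicates were treated. With the replicate block, 16 members were lower and none higher, where 12.4% of all genes were higher and 8.82% lower. They were NDUFA2, NDUFA4, NDUFA6, NDUFA10, NDUFB6, NDUFS3, ATP5F1C, ATP5MC3, ATP5ME, ATP5MPL, ATP5PB, ATP5PF, COX6A1, SDHB, UQCR10 and UQCRQ. Without the DKD untreated library numbered 1, 12 were lower without the block. Over all genes that fit called 1968, against 1163 with all 12 libraries, so calls rose in general. The count of members was 0 without any 1 of the DKD with TNFα replicates 1 and 2, DKD untreated replicate 3, CTL with TNFα replicates 1 to 3 and CTL untreated replicates 1 and 3 (702 to 1318 of all genes called), 2 without CTL untreated replicate 2 (940) and 3 without DKD with TNFα replicate 3 (777). NDUFB6 was not among the 3. Within DKD alone no member was called by edgeR (5 lower and none higher at an unadjusted p under 0.05), where 1.54% of all genes were higher and 0.254% lower. DESeq2 called 2 members there, and 638 genes over all. Within CTL alone none was called by edgeR (6 lower and 1 higher unadjusted), where 1.9% and 0.726% of all genes were called. DESeq2 called 1 member there, and 1015 genes over all.

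With the block, SDHB (−0.29, adjusted p = 0.0391) and NDUFS3 (−0.23, adjusted p = 0.0456), a core subunit of complex I, were lower in DKD by edgeR, where the background was 5.55% higher and 2.13% lower. In CTL, NDUFB6 (−0.35, adjusted p = 0.0119), ATP5PF (−0.25, adjusted p = 0.0136) and UQCRQ (−0.29, adjusted p = 0.0136) were lower with the block, where it was 7.94% and 4.7%. SDHB was at 47.0, 51.8 and 54.8 CPM in DKD with TNFα against 59.4, 62.0 and 66.5 in DKD untreated, and at 54.4, 49.6 and 51.0 in CTL with TNFα against 58.8, 55.1 and 56.0 in CTL untreated. The groups with and without TNFα do not overlap in either line. UQCRQ was at 53.2, 61.0 and 65.3 CPM in DKD with TNFα against 65.6, 65.4 and 75.4 in DKD untreated, and at 57.9, 56.5 and 63.3 in CTL with TNFα against 71.7, 68.6 and 77.3 in CTL untreated. UQCRQ does not overlap in either line either, although in DKD the nearest libraries are at 65.3 and 65.4 CPM. Both genes were named by their p from these same libraries, so the lack of overlap is a description. The share of all tested genes without overlap was not counted.

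**Figure D5:**
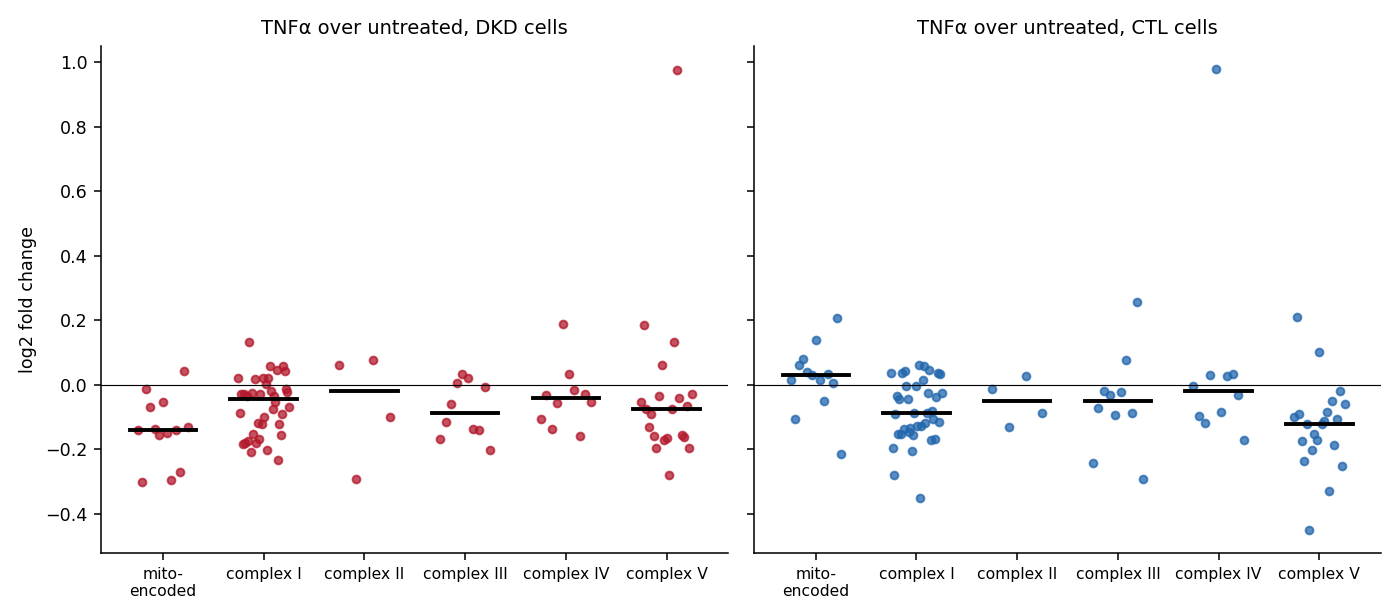
Log2 fold change of each tested member for TNFα over no treatment, by complex and for the mitochondrially encoded genes, with DKD left of CTL and bars at medians. The nuclear complexes lie mostly just below 0 in both lines, and the mitochondrially encoded genes have medians of −0.14 in DKD (−0.02 without DKD untreated library 1) and 0.03 in CTL.

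Other gene lists of the mitochondrion showed both patterns. Small values below 0 with TNFα were found outside OXPHOS too, with medians of −0.08 in DKD and −0.11 in CTL for 78 mitochondrial ribosomal protein genes, −0.10 and −0.11 for 51 assembly factors, −0.10 and −0.15 for 32 import and cristae genes, and −0.11 and −0.14 for 82 cytosolic ribosomal protein genes. Averaged over the lines, TNFα lowered 2 mitochondrial ribosomal protein genes (MRPL11, −0.34, and MRPS24, −0.29), 1 assembly factor (SDHAF1, a complex II assembly factor, −0.42), 2 import genes (HSPE1, −0.36, and TIMM8A, −0.46) and 2 cytosolic ribosomal protein genes (RPLP0 and RPS3A) by edgeR, where 2.2% of all genes were called lower and 5.02% higher. It raised 1 tricarboxylic acid cycle gene (OGDH, 0.25) and 1 regulator, PPARGC1A, the coactivator PGC-1α that promotes mitochondrial biogenesis (0.91, adjusted p = 0.0017).

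PPARGC1A was also higher in DKD than in CTL, where knock-down and a property of the lines again cannot be told apart. It was at 43.7, 37.9 and 33.9 CPM in DKD with TNFα, 33.7, 22.7 and 19.9 in DKD untreated, 24.3, 26.7 and 23.8 in CTL with TNFα, and 12.01, 10.5 and 9.72 in CTL untreated. DKD over CTL averaged over treatments gave 0.94 (adjusted p = 0.000651, edgeR). For the same contrast, counts higher and lower were 2 and 0 of 10 subunits and carriers outside the name patterns (COX7A2L, 0.25, and ATP5IF1, 0.20), 2 and 1 of 51 assembly factors, 1 and 3 of 31 genes of mitochondrial DNA and RNA handling, 6 and 1 of 78 mitochondrial ribosomal protein genes, 2 and 2 of 18 regulators, 0 and 1 of 14 tricarboxylic acid cycle genes, 4 and 0 of 32 import and cristae genes and 2 and 22 of 82 cytosolic ribosomal protein genes. Over all tested genes 8.49% were higher and 6.04% lower, and 22 of 82 is above that share. Those 22 lie outside the 2 stretches. Of the 49 calls in these lists 14 lie in the stretches, and of the 25 that are not cytosolic ribosomal protein genes, 12. Over all tested genes, calls higher and lower were 287 and 8 in the chromosome 2 stretch and 4 and 98 in the chromosome 10 stretch. Outside both they were 1077 and 868. All 4 mitochondrial ribosomal protein genes tested in the chromosome 2 stretch were higher (MRPS5, 0.60, MRPS9, 0.55, MRPL44, 0.50, and MRPL30, 0.49), as were the chaperonins HSPD1 (0.49) and HSPE1 (0.49), the antioxidant regulator NFE2L2 (0.67), the transcription termination factor family gene MTERF4 (0.47) and COA5 (0.69), an assembly factor of complex IV. The mitochondrial DNA helicase TWNK (−0.68) and the coactivator PPRC1 (−0.90) fell in the chromosome 10 stretch. Outside the stretches, COX15, needed for haem A of complex IV, fell by 0.35 (adjusted p = 0.00116), POLG2, a subunit of the mitochondrial DNA polymerase, by 0.27, and TBRG4, a mitochondrial RNA factor, by 0.28. NUBPL, an assembly factor of complex I (0.27), and the import genes TIMM8A (0.33) and TIMM44 (0.17) were higher, and OGDH (−0.28) and MYC (−0.26) were lower. The 2 cytosolic ribosomal protein genes that rose, RPL31 (0.29) and RPL37A (0.28), lie in the chromosome 2 stretch, and the median of the 82 was −0.12.

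Promoters of nuclear members were searched for 3 motifs on both strands in RefSeq windows (GRCh38.p14) of 250 bases before to 50 bases after the start. Of 80 members that are not pseudogenes, 64 had an entry. The NRF1 motif GCGCATGC was in 14 of 64 (21.9%) and in 4.89% of all 15843 coding genes with an entry, the ETS motif of GABPA, CCGGAAGT, in 12 (18.8%) and 6.97%, and the YY1 motif AAGATGGC in 12 (18.8%) and 4.66%. At least 1 of the 3 was in 31 of 64 (48.4%) and in 15.04% of all. Genes with a motif were found among those called higher and those called lower. The 250 bases before the start are shown for 2 genes that rose, COX5B in the chromosome 2 stretch and NDUFA6 outside both stretches, and for ATP5MD, which fell, so that a motif can be seen in either direction. Capitals mark NRF1 or ETS motifs.
COX5B: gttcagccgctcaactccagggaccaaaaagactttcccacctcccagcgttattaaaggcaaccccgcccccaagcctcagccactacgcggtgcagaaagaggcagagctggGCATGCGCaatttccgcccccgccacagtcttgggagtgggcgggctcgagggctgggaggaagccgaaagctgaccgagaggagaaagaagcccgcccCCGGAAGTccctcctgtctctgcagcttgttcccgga
NDUFA6: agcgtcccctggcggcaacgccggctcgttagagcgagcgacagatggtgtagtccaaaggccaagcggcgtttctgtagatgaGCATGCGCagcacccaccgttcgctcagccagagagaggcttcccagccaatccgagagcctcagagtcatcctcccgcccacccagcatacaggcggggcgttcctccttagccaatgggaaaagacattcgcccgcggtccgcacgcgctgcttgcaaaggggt
ATP5MD: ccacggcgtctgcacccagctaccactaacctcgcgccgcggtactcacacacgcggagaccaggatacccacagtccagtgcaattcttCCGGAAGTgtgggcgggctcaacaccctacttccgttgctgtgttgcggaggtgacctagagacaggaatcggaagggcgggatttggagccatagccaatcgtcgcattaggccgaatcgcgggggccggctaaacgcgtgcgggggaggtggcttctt
They lie at chr2:97645812-97646061 on the plus strand for COX5B, at chr22:42090773-42091022 on the minus strand for NDUFA6 and at chr10:103396476-103396725 on the minus strand for ATP5MD, which RefSeq lists as ATP5MK. The COX5B stretch holds 1 NRF1 and 1 ETS motif, that of NDUFA6 1 NRF1 motif and that of ATP5MD 1 ETS motif. A match is a description of the letters and not a site shown to be bound.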

How the data were processed

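RNA was sequenced from 12 libraries, 3 in each of 4 groups. Estimated counts by gene symbol, in whole numbers, were deposited by the authors together with a normalised signal, which the deposited values show to be the counts divided by 1 factor per library and which was used only for that check. The submitters' processing notes name GRCh38/hg38, DESeq2, Salmon 0.14.0 and CASAVA 1.7, with no order of steps. How transcripts were summed to genes, the strand and poly(A) selection are steps not given in the sources used here. Salmon can split reads between near-identical genes, pseudogenes included. Columns of other series numbered 0.

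All 12 libraries were fitted in edgeR 4.0.16 (R 4.3.3, limma 3.58.1) with 1 mean per group, TMM factors, filterByExpr (minimum count 10, minimum total 15, which left 16118 genes) and the quasi-likelihood test with 8 residual degrees of freedom. Benjamini-Hochberg adjustment ran over all genes tested, with 0.05 as the limit for a call. CPM uses TMM factors. Fold changes are log2, with standard errors (SE) of the contrast. Shares of counts were compared with exact two-sided permutation tests, and, as an alternative chosen after seeing the data, with exact sign-flip tests over pairs of equal replicate number. The contrasts were TNFα over untreated in each line, DKD over CTL with and without TNFα, both averages, and the interaction, which is TNFα in DKD minus TNFα in CTL. The DKD contrasts share no libraries with each other, but each average combines them, and TNFα and DKD contrasts share libraries.

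Same-numbered libraries of different groups deviated together from their group means, with correlations of 0.193 to 0.695 in all 18 pairs. Deviations within a group cancel out, so with the libraries numbered 1 standing apart, those numbered 2 and 3 can correlate without further pairing. Libraries of unequal number were not correlated, so pairing beyond number 1 is not shown. The replicate number was used to pair libraries as an alternative. Numbers of calls with it as a block are printed, with values for some of the genes whose call changed. Replicates all differed by more than counting noise, with 11.4 to 130 for chi-square over its degrees of freedom.

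The members and gene lists were chosen with earlier results of these data known. Named genes are all mitochondrially encoded members, called nuclear members (up to 8 in each direction by p), the 3 of each complex with the highest mean CPM and the 3 with the smallest p in each averaged contrast, members under 1 CPM, and up to 4 called genes per other list by p. MT-CYB and NDUFB3 values per library, COX4I1, CYC1, COX6A2, COX7A1 and COX4I2 were given after values were seen. Alternatives were RLE, library totals, no filter, mitochondrial genes out of the totals, DESeq2 1.42.0, the block, 2 groups only, and leaving out libraries. The fits were tested on simulated data. For DKD without TNFα, 61% of planted log2 changes of 1 and 84% of those of 2 were recovered, with 5.23% false. Recovery of smaller changes, such as those of the called members, was not measured. Sequences came from RefSeq promoters and GENCODE transcripts with Python 3.11.15.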

Additional observations from a re-analysis of the deposited data

How the results depend on the processing

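Of 396 alternative values over 26 main results, 341 were labelled the same. For a number of called members this meant a number equal or near to the main one, including no call in both. For a share or a ratio it meant no change of sign. No value of a called member changed sign in 533 alternative values, and 125 of them lost their call. Of 1872 values of uncalled mitochondrially encoded genes, 4 gained one. Of the 12 members called for DKD averaged over treatments, 9 were called under all 20 alternatives, and ATP5MC2, ATP5PO and NDUFC2 were not. The cause of each shift below was not tested, beyond the fewer libraries or the block that define it.

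With the replicate block, nuclear members called numbered 2 for TNFα in DKD, 3 for TNFα in CTL, 12 for DKD without TNFα, 10 for DKD with TNFα and 16 for TNFα averaged over the lines, and 1 mitochondrially encoded member each was called for TNFα in DKD, DKD averaged and TNFα averaged. Over all genes the block gave 1237, 2037, 2657, 3133 and 3414 calls, in the order of the nuclear counts, and 5033 for DKD averaged. The main fit gave 289, 423, 803, 1005, 1163 and 2342. DESeq2 called 2 nuclear members for TNFα in DKD, 1 in CTL and 9 for TNFα averaged, and over all genes 638, 1015 and 1922. For TNFα averaged, RLE factors gave 3 (1176 over all genes) and no filter gave 0 (955). With only the 2 groups compared, DKD without TNFα had 0 (332 over all genes). Without replicate number 1 in all groups, nuclear calls numbered 1 for TNFα in DKD, 1 in CTL, 13 for DKD without TNFα, 19 for DKD averaged and 9 for TNFα averaged. Over all genes 1360, 2225, 1983, 4100 and 3941 were called there, in the same order, so calls rose in general. The differences became 0.0288 for the mitochondrial percent and 0.519 for the ratio for TNFα in DKD and −0.621 for the ratio for DKD without TNFα. Without both DKD libraries numbered 1, an alternative chosen after seeing the data, nuclear calls numbered 2 for TNFα in CTL, 11 for DKD without TNFα, 19 for DKD averaged and 11 for TNFα averaged. Over all genes 1400, 1384, 3331 and 2570 were called there, in the same order.

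Leaving out 1 library at a time, nuclear calls ran from 0 (without CTL untreated replicate 3) to 8 for DKD without TNFα, 3 to 7 for DKD with TNFα, 9 to 12 for DKD averaged, and 0 to 12 for TNFα averaged (12 without DKD untreated replicate 1), and mitochondrially encoded calls from 0 to 1 for DKD averaged (1 without DKD untreated replicate 3). The mitochondrial percent ran from −0.860 to 0.308 for TNFα in DKD, −0.428 to 0.261 for DKD with TNFα and −0.109 to 1.06 for DKD without TNFα, the nuclear percent from −0.00173 to 0.0591 for DKD without TNFα, and the ratio from −1.12 to 1.23 for TNFα in DKD and −0.879 to 1.48 for DKD without TNFα. The ratio for TNFα in CTL ran from 0.675 to 1.31. Over all genes, calls for TNFα averaged numbered 1968 without DKD untreated replicate 1, against 1163 in the main fit. For members under 1 CPM, the value of 1 count, 0.0238 to 0.0320 CPM, limits the precision.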
